A study of Homo sapiens with 48 samples.

Results

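In human Flp-In 293 T-REx cells, 181 genes had more RNA after transfection of an siRNA against UPF1 (siUPF1) than after a non-targeting siRNA (siNT) in every one of 8 stable lines, although 7 of those lines carried a UPF1 transgene. These shared risers are 181 of the 58870 genes in the table, and of the 11942 genes that averaged at least 5 reads per 1000000 counted (CPM) over the 48 libraries. They were chosen on the measured values: the effect of siUPF1, log2((mean CPM with siUPF1 + 0.5)/(mean CPM with siNT + 0.5)), had to reach about 1.5-fold in each line. Their effects in the 8 lines are therefore given as a description without a test. Members are tested only between one line and another under the same siRNA. The choice did not compare lines, but it used the same libraries and required the effect in every line. A gene whose effect was lost in any line could not be a member, so the line tests leave such genes out. Tests of siUPF1 against siNT are given only for genes that are not members. The members just inside the threshold were ANKRD52, with a smallest effect of 0.59 (LECY line), and USP31, with 0.59 (WT line), and the genes just outside were AHR, with 0.58 (WT line), and THOC6, with 0.58 (E797R line).

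The lines were a CLIP line, which carried the CLIP tag alone, a WT line with CLIP-tagged wild-type UPF1, and 6 lines with CLIP-tagged mutant UPF1. The mutants are called LECY, E797R, I757R and F192E, with FE-ER and IR-ER as the remaining pair, and the labels do not spell out LECY, FE-ER and IR-ER. Cells of every line received 40 nM of siUPF1 or siNT for 72 h, and each of the 16 groups has 3 libraries, described in the design text as biological replicates. No group was left without an siRNA, so a gene raised by siUPF1 and a gene lowered by siNT cannot be told apart. Every rise, fall or effect given here is relative to siNT. All the lines descend from a 293 embryonic kidney line with a site for inserting 1 transgene, and all keep their own UPF1 gene. The promoter of the transgene, any inducer, the siRNA sequences and whether a line is 1 clone are not given in the sources used here.

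UPF1 is an RNA helicase that drives nonsense-mediated decay (NMD), the pathway that degrades mRNAs whose translation stops too early and a number of normal mRNAs. When UPF1 falls, direct NMD targets accumulate, and a transgene that the siRNA does not reach can supply the protein again. The 3′ untranslated region (UTR) of an mRNA holds many of the short sites through which small RNAs and RNA-binding proteins set its stability, and the lysosome, which several members serve, is the compartment in which cells break down macromolecules.

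UPF1 RNA (chr19:18831938-18868236, GRCh38) averaged 20.2 ± 0.901 CPM with siUPF1 and 106 ± 7.86 CPM with siNT in CLIP cells (SD, n = 3 each). In the 7 lines with CLIP-UPF1 it averaged 3241 to 4781 CPM with siUPF1 and 3615 to 4418 CPM with siNT, with effects between −0.16 (LECY) and 0.13 (WT). Restored UPF1 thus describes the RNA of 7 lines and not of the CLIP line. Reads of the transgene and of the cell's own UPF1 count together here, and protein was not measured. Libraries held 6016999 to 14551820 expected counts, and mitochondrial RNA took 2.19% to 4.41% with siUPF1 and 1.98% to 3.63% with siNT. The summed level of 12 markers of 293 cells was 1544 to 2091 CPM with siUPF1 and 1757 to 2144 CPM with siNT. Single markers moved within that sum: of the 11 tested, 1 to 4 fell with siUPF1 in a line by edgeR. INA, a neuronal filament protein, fell in each of the 8 lines, with log2 changes of −0.82 (E797R) to −0.42 (CLIP), and PAX2, a kidney transcription factor, fell in CLIP (−1.32), F192E and LECY. With siUPF1, NEFM was higher in WT than in CLIP by 1.79 and HMGA2 by 0.34. Of the markers of other cell types, COL3A1, a fibroblast marker, was higher by 1.76 and PDGFRA by 0.87. COL1A1, with 0.13, was not called. NEFM and COL3A1 had medians of 1.04 and 2.69 CPM over all libraries, so their differences rest on few reads. The part of these shifts in the results was not tested. The 16 markers of other cell types summed to 4.58 to 14.1 CPM with siUPF1 and 6.24 to 12.2 CPM with siNT, and CD3E and INS were at 0 in all libraries. In bulk RNA, fewer cells that express a gene and less RNA per cell cannot be told apart.

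Among the shared risers 177 are protein coding, 2 are processed pseudogenes, 1 is a processed transcript and 1 is a lincRNA. Their mean level over all libraries ran from 5.05 to 652 CPM with a median of 43.1 CPM, against a median of 37.2 CPM for all genes with at least 5 CPM. Chromosome 17 held 24 members, or 13.3%, against 6.12% of all such genes, and chromosome 8 held 1 member, or 0.552%, against 3.38%. The smallest effect over the 8 lines had a median of 0.74 and a highest value of 1.82, and in 24 members it was at least 1.

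The median effect of the members was 1.01 in CLIP, 0.93 in WT and 0.94 in LECY, and in the other mutants it was 0.95 (F192E), 0.94 (FE-ER), 0.89 (E797R), 0.89 (I757R) and 0.89 (IR-ER). Over all genes with at least 5 CPM the medians lay between −0.01 (WT) and 0.02 (I757R). All 3 siUPF1 libraries lay above all 3 siNT libraries for 178 of the 181 members in CLIP, where 26.8% of all genes with at least 5 CPM did so, and for 174 members in WT, where 15% did. In the 6 mutants this held for 171 (I757R) to 177 members (F192E and IR-ER), against 18.3% (E797R) to 24.1% (LECY) of all such genes. In 128 members all 24 siUPF1 libraries lay above all 24 siNT libraries, which 3.03% of all genes with at least 5 CPM did. The rule used these contrasts, so the counts describe how evenly the effect was spread over libraries and give no further support for it.

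**Figure D1:**
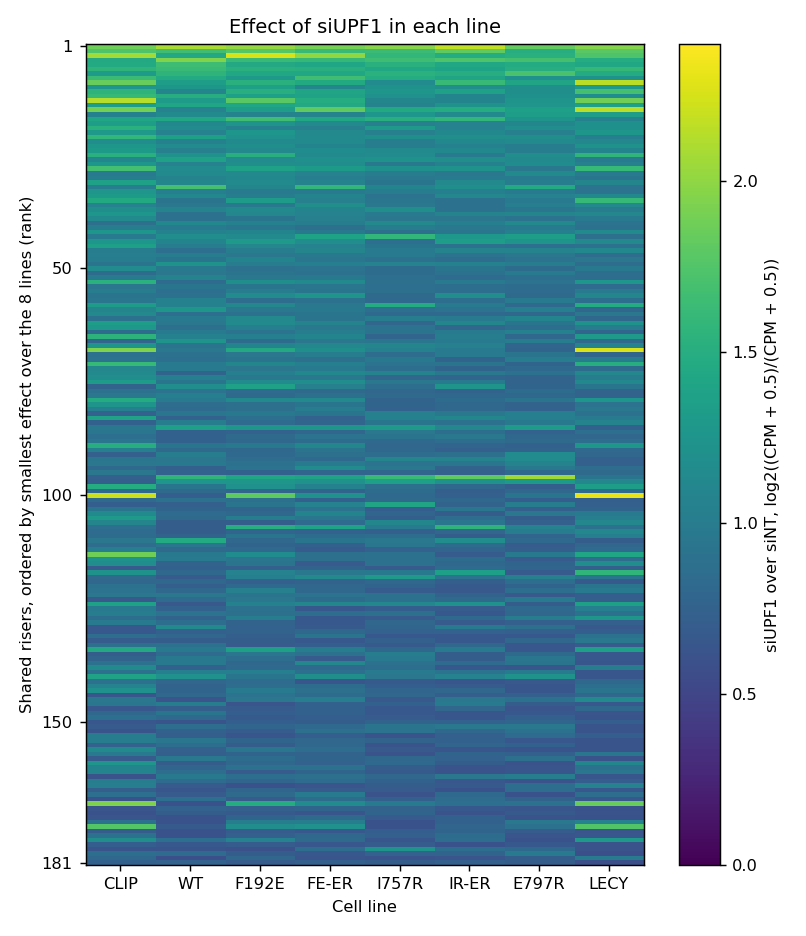
Effect of siUPF1 over siNT, log2((CPM + 0.5)/(CPM + 0.5)) of group means (n = 3 each), colour scale from 0, for the 181 shared risers (rows, ordered by the smallest effect over the lines) in 8 lines (columns). Most rows keep a similar colour across the lines, and a few are brighter in CLIP and LECY.

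The 8 members with the largest smallest effect encode proteins of different kinds. PAQR6, a membrane receptor of the progestin receptor family (chr1:156243321-156248117), had the highest, with 7.05, 10.6 and 16.5 CPM as the lowest, median and highest of 24 siUPF1 libraries, against 0.97, 2.27 and 3.84 CPM in 24 siNT libraries. Its effect was 1.82 (E797R) to 2.17 (IR-ER). At such low counts the added 0.5 CPM makes the effect an understatement of the fold.

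LMLN, a metallopeptidase (chr3:197960200-198043720), had 23.3, 27.9 and 34.0 CPM (lowest, median and highest) with siUPF1 and 5.96, 8.17 and 13.0 CPM with siNT. WNK4, a kinase that controls salt transport in the kidney (chr17:42780678-42796936), had 5.01, 10.4 and 15.9 CPM with siUPF1 and 0.97, 2.45 and 4.36 CPM with siNT. P2RY11, a receptor for extracellular ATP (chr19:10111538-10115372), had 25.6, 32.3 and 44.0 CPM with siUPF1 and 8.37, 11.5 and 17.3 CPM with siNT. In none of these 3 genes did the siUPF1 and siNT libraries overlap. P2RY11 lies next to PPAN, with which it forms read-through transcripts, so reads could be divided between them.

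SRPRA encodes the alpha subunit of the receptor that docks the signal recognition particle (SRP) at the endoplasmic reticulum (chr11:126262919-126269144). It had 138, 106 and 107 CPM with siUPF1 in the 3 CLIP replicates, against 47.4, 36.9 and 43.9 CPM with siNT. In WT cells it had 208, 157 and 137 CPM with siUPF1, against 49.2, 39.2 and 40.5 CPM with siNT. The siUPF1 libraries were the higher ones in both lines, and SRPRA was one of the members with a larger effect in WT (1.95) than in CLIP (1.44).

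CREB3L2, a transcription factor that is anchored in the endoplasmic reticulum membrane and released by cleavage (chr7:137874979-138002067), had 145, 118 and 122 CPM with siUPF1 in CLIP, against 46.7, 40.2 and 42.3 CPM with siNT. In WT it had 139, 114 and 133 CPM with siUPF1 and 35.8, 40.9 and 48.3 CPM with siNT, close to the CLIP values. CELF2, an RNA-binding protein that regulates splicing and mRNA stability (chr10:10798397-11336675), had 67.8, 78.0 and 85.8 CPM as the lowest, median and highest siUPF1 libraries of all lines and 23.3, 27.6 and 32.2 CPM with siNT. NR6A1, an orphan nuclear receptor of germ and embryonic cells (chr9:124517275-124771310), had 102, 51.0 and 65.9 CPM with siUPF1 in CLIP and 33.3, 26.4 and 27.2 CPM with siNT. Replicate 1 was the highest in both groups of NR6A1.

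**Figure D2:**
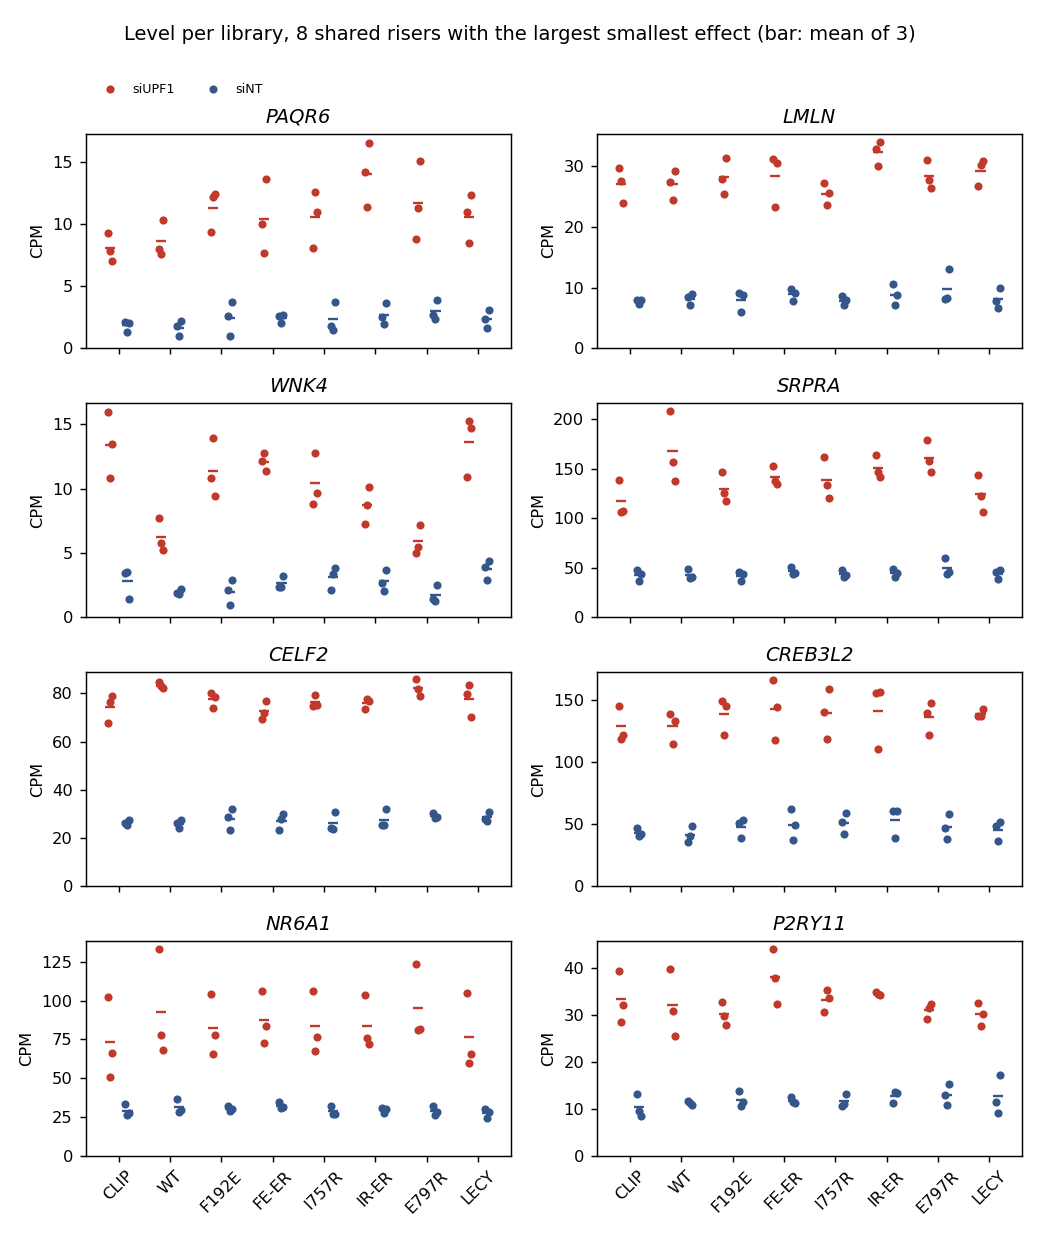
CPM per library (y axis, linear, from 0) in the 8 lines (x axis) for the 8 shared risers with the largest smallest effect, siUPF1 in red left of siNT in blue, with a bar at the mean of 3 replicates. In each panel every siUPF1 point lies above every siNT point, and WNK4 is lower in WT and E797R than in CLIP with siUPF1.

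The most abundant member was RPLP0, a protein of the ribosomal stalk (chr12:120196686-120201235), with 656, 857 and 982 CPM as the lowest, median and highest of 24 siUPF1 libraries and 367, 445 and 623 CPM with siNT. It also had the narrowest spread of effects, between 0.84 (LECY) and 0.96 (CLIP). Its pseudogene RPLP0P6 was a member too, at a mean of 8.69 CPM, and reads could be shared between these near-identical copies. Of the other 3 most abundant members, YBX3, a cold-shock RNA-binding protein, had an effect of 0.76 to 0.91. IGF2R, the mannose 6-phosphate receptor that carries hydrolases to lysosomes, had 0.74 to 0.94, and ARHGDIA, a regulator of small GTPases, had 0.78 to 1.01.

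Members differed in how evenly the effect was spread over the lines. The largest minus the smallest effect had a median of 0.38, was under 0.25 in 42 members and over 0.75 in 19. The narrowest after RPLP0 were KIF5C, a neuronal kinesin heavy chain (0.73 to 0.85), FAM160A1 (0.60 to 0.72) and GIGYF1, a protein that acts in translational repression (0.89 to 1.01). The widest were ARRDC4, an arrestin-family protein (0.72 in WT, 2.32 in LECY), and TXNIP, a related arrestin-family protein that binds thioredoxin and limits glucose uptake (0.78 in E797R, 2.27 in LECY). HRK, a BH3-only activator of apoptosis, followed (0.61 in WT, 1.94 in CLIP), then ENPP5, an ectonucleotide pyrophosphatase family protein, which ran the other way (0.73 in CLIP, 2.06 in E797R). The effect was larger in CLIP than in WT for 116 members, by at least the same 1.5-fold step for 12, and smaller in CLIP by at least that step for 2. The largest effect was in CLIP for 72 members, in WT for 26 and in LECY for 25, and the smallest was in these lines for 21, 25 and 35.

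Whether the members differ between lines under the same siRNA was tested with edgeR's quasi-likelihood test over all 16697 genes tested, among them all 181 members. With siUPF1, 24 members differed between the WT and CLIP lines at an adjusted p under 0.05, 6 higher and 18 lower in WT. That is 13.3% of members, against 14.1% of all genes tested, 5.45% higher and 8.61% lower. With the replicate number as a block, 49 members (27.1%) and 25.4% of all genes differed, so in both fits the members' share was near that of all genes. The genes tested include some under 5 CPM and the members none, and no share among genes of like level was taken. The count was 11 without replicate 1 and 14 without replicate 3, 13 without CLIP siUPF1 replicate 3 and 15 without WT siUPF1 replicate 2. With siNT, edgeR and DESeq2 called 0 members between WT and CLIP, with 3 at an unadjusted p under 0.05, and 0.012% of all genes differed by edgeR. Here and below, no share of all genes is given for an unadjusted p, for DESeq2, or for fits without some libraries or of 2 groups only. The same holds with siNT for fits with no filter on low counts. Those counts of members therefore have no background and are not read as a result.

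TXNIP showed the largest difference between these lines among the members that passed. It had 7.72, 5.77 and 12.9 CPM in WT cells with siUPF1 and 29.4, 25.3 and 22.0 CPM in CLIP cells with siUPF1, and the libraries of the lines did not overlap. The difference in log2 level, WT minus CLIP, was −1.50 (SE 0.33, edgeR adjusted p = 0.00134, n = 3 each). HRK had 31.3, 27.7 and 43.1 CPM in WT against 78.5, 73.2 and 82.8 CPM in CLIP with siUPF1 (−1.17, SE 0.24, edgeR adjusted p = 0.000609). WNK4 had 7.72, 5.77 and 5.22 CPM in WT against 15.9, 10.8 and 13.4 CPM in CLIP (−1.07, SE 0.25, edgeR adjusted p = 0.00239). DHRS2, a short-chain dehydrogenase, had 10.4, 10.2 and 4.25 CPM in WT against 19.1, 16.4 and 16.7 CPM in CLIP (−1.05, SE 0.32, edgeR adjusted p = 0.0218). All 3 WT libraries were below all 3 CLIP libraries in these genes. Without replicate 1 none of the 4 passed, and DHRS2 also failed without replicate 3, without WT siUPF1 replicate 3 and without CLIP siUPF1 replicate 1.

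The 4 largest differences in the other direction were in ENPP5, SRPRA, FJX1 and FAM234B. ENPP5 had 17.4, 13.4 and 13.5 CPM in WT with siUPF1, against 9.29, 6.33 and 7.05 CPM in CLIP with siUPF1 (0.997 on the log2 scale, SE 0.23, edgeR adjusted p = 0.00157). SRPRA, with the CPM given above, differed by 0.54 (SE 0.15, edgeR adjusted p = 0.00955), although the lowest WT library was below the highest CLIP library. FJX1, a secreted regulator of growth known from fly four-jointed, differed by 0.50 (SE 0.18, edgeR adjusted p = 0.0477). FAM234B differed by 0.41 (SE 0.12, edgeR adjusted p = 0.0145). ENPP5 passed whichever replicate was left out, while SRPRA failed without replicate 2, FJX1 without any 1 of the 3 and FAM234B without replicate 1 or 3. BAG1, a co-chaperone of HSP70 whose mRNA is an established NMD target, had 102, 106 and 88.7 CPM in WT and 177, 198 and 197 CPM in CLIP with siUPF1 (−0.92, SE 0.17, edgeR adjusted p = 0.000124).

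ARRDC4 had the largest fitted difference in mean level of the members outside the calls. Its siUPF1 libraries held 26.6, 26.9 and 73.0 CPM in WT and 146, 124 and 142 CPM in CLIP. Replicate 3 of WT stood apart from the other 2, also with siNT, where WT held 19.2, 14.4 and 42.7 CPM.

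**Figure D3:**
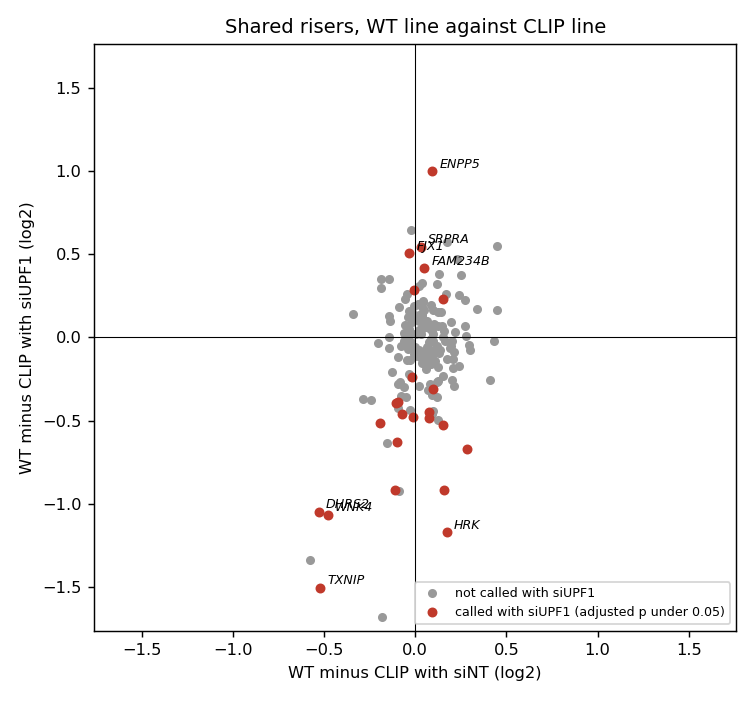
Log2 difference in level, WT minus CLIP, of each of the 181 shared risers with siUPF1 (y axis) and with siNT (x axis) from the edgeR fit, red for the 24 members called with siUPF1. Red points spread between −1.50 and 0.997 on the y axis, and none of the members was called with siNT.

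Of the mutants, LECY differed from WT most often. With siUPF1, 26 members differed, 19 higher and 7 lower in LECY, against 13.5% of all genes tested, 8.18% higher and 5.34% lower. With the replicate block the count was 42, or 23.2% of members against 24.4% of all genes, and without replicates 1, 2 and 3 it was 10, 17 and 11. ARRDC4 had 133, 121 and 224 CPM in LECY, well above the WT libraries given above (1.90 on the log2 scale, SE 0.60, edgeR adjusted p = 0.0297). TXNIP had 26.2, 25.3 and 26.7 CPM in LECY, also above every WT library (1.53, SE 0.34, edgeR adjusted p = 0.00131). ARRDC4 failed the test without replicate 1 or 2, and TXNIP without replicate 1. BAG1, GLA, HRK and WNK4 were higher in LECY by 0.78, 0.75, 1.13 and 1.09, and ENPP5, FJX1 and SRPRA were lower, with differences of −0.90, −0.70 and −0.47. These genes also differed between WT and CLIP, but both comparisons use the same 3 WT siUPF1 libraries. UPF1 RNA with siUPF1 averaged 3241 ± 207 CPM in LECY and 4393 ± 294 CPM in WT (SD, n = 3 each), and its part in these differences was not tested.

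In F192E 1 member differed from WT with siUPF1, against 1.82% of all genes, and 0 without replicate 1 or without replicate 2. With the replicate block 15 (8.29%) did, against 6.99% of all genes, and with no filter on low counts 8 did, against 1.02%. The member called without these changes was SDC4, a heparan sulfate proteoglycan of the cell surface, with 38.3, 41.7 and 36.3 CPM in F192E and 24.1, 24.2 and 28.2 CPM in WT (0.58 on the log2 scale, SE 0.14, edgeR adjusted p = 0.0148). By edgeR 0 members differed from WT with siUPF1 in I757R, FE-ER, IR-ER and E797R. In these lines 14, 11, 8 and 5 members had an unadjusted p under 0.05, without a share of all genes to set them against. DESeq2 called 1 member in FE-ER and 0 in the other 3, and the replicate block called 7 in FE-ER (2.61% of all genes), 2 in I757R (0.533% of all), 2 in IR-ER (1.99% of all) and 0 in E797R (0.479% of all). With no filter on low counts 1 member was called in E797R, 6 in I757R, 4 in FE-ER and 3 in IR-ER, against 0.105%, 0.271%, 0.389% and 0.515% of all genes. The shares without the filter are of 38058 genes, which include those with low counts, while every member averaged at least 5 CPM. They are therefore not a like background, and the counts without the filter are not read as a result. Of all genes the share that differed was 0.425% (FE-ER), 0.246% (IR-ER), 0.0779% (I757R) and 0.0479% (E797R). With siNT, edgeR and DESeq2 called 0 members in all 6 mutants against WT, with 1 to 7 at an unadjusted p under 0.05. Of all genes 0% differed with siNT in F192E, 0.018% in E797R and 0.00599% in each of the other mutants.

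By role, several members encode proteins of the lysosome. MCOLN1, a calcium channel of the lysosomal membrane, had 24.7, 18.7 and 18.7 CPM with siUPF1 in CLIP and 7.76, 6.57 and 6.26 CPM with siNT. In WT it had 20.3, 18.5 and 11.9 CPM with siUPF1 and 8.30, 7.30 and 6.39 CPM with siNT, again without overlap. GLA, the alpha-galactosidase that is deficient in Fabry disease, had 167, 168 and 184 CPM with siUPF1 in CLIP and 71.6, 52.8 and 63.8 CPM with siNT. In WT it had 106, 88.7 and 135 CPM with siUPF1 and 61.0, 46.6 and 65.0 CPM with siNT. The hydrolases GUSB and GAA and the protective protein CTSA had effects between 0.65 (GAA in LECY) and 1.15 (GUSB in CLIP).

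A list of 28 lysosome and autophagy genes holds 6 members, these 5 among them. Of the other 22, 10 rose in CLIP and 4 in WT by edgeR at an adjusted p under 0.05, where 18.1% and 8.43% of all genes tested rose. The median log2 change of these 22 was 0.36 in CLIP and 0.22 in WT, against −0.03 and −0.01 over all genes tested. Without replicate 1 the CLIP count was 6. The WT count was 9 with the replicate block, 1 without replicate 2, and 0 without replicate 1, where 5 rose at an unadjusted p under 0.05. In the mutants 10 of the 22 rose in LECY (15.8% of all genes tested), 9 in F192E (11.8% of all) and 7 in FE-ER (10.1% of all). In IR-ER 6 rose (9.21% of all), and 5 did in I757R (8.13% of all) and 3 in E797R (8.34% of all). GABARAPL1, an autophagosome protein and known NMD target, rose most in CLIP among the genes of the list that are not members (1.61, SE 0.14, edgeR adjusted p = 3.68e-12), and CTSD, a lysosomal protease, rose most in WT (0.66, SE 0.19, edgeR adjusted p = 0.0166).

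**Figure D4:**
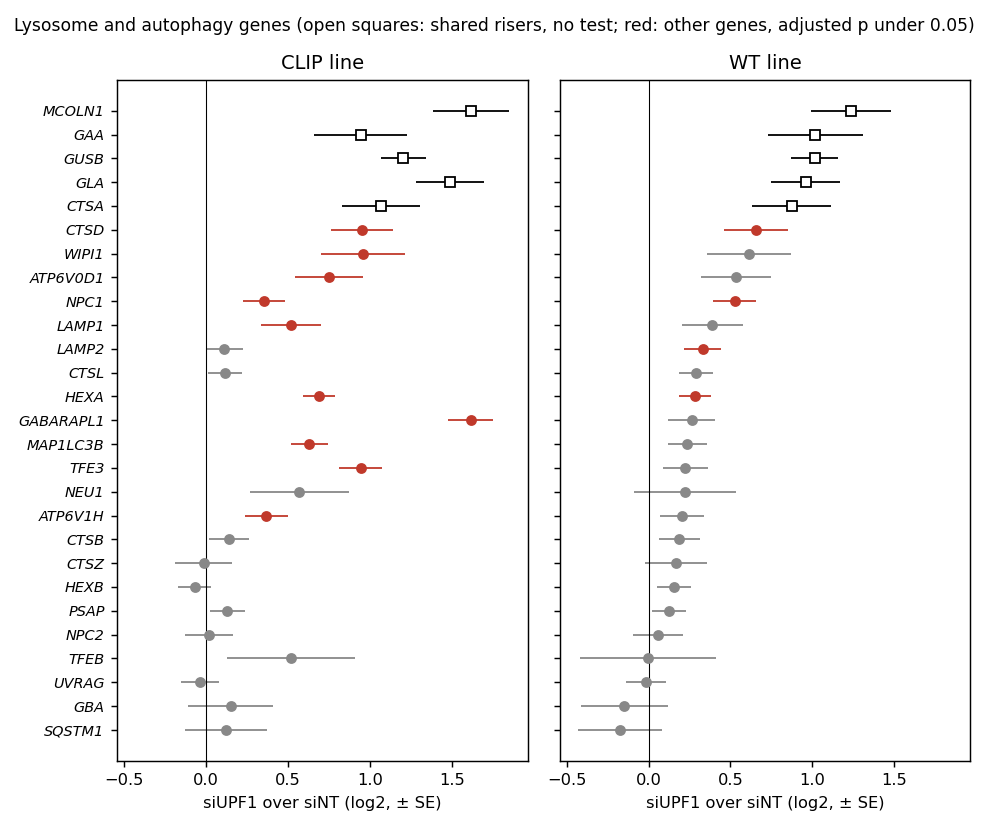
Log2 change with siUPF1 over siNT (x axis, edgeR fit, bars are SE, n = 3 each) of 27 of the lysosome and autophagy genes (rows) in the CLIP and WT lines, open squares for 5 shared risers, which get no test, and red for other genes with an adjusted p under 0.05. These 5 shared risers lie between 0.87 and 1.62, and GABARAPL1 is at 1.61 in CLIP and grey in WT.

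More members of this kind lie outside the list and were picked after their values were seen. NAAA, PLBD2 and SLC17A5 are proteins of the lysosome, and their smallest effects were 0.74, 0.72 and 0.66. ATG9A, ATG2A, ULK3 and TECPR1 act in autophagy, with smallest effects of 0.84, 0.65, 0.74 and 0.61. FLCN, which regulates nutrient signalling at the lysosome, had 0.71, and VPS26A, a subunit of the retromer that returns receptors to the Golgi, had 1.06.

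Promoters were searched for letter strings of known elements. CACGTG, the core of the element through which TFEB and related factors bind lysosomal genes, was sought on both strands (it reads the same on each) in the 300 bases around each start in RefSeq (GRCh38.p14). It lay in 24 of 147 members with an entry (16.3%), in 936 of 8923 other genes with at least 5 CPM (10.5%) and in 7.44% of all 27305 promoters. CTSA, GAA and MCOLN1 hold 2 copies each, and GLA and GUSB hold 0 in this window. The promoter of MCOLN1 is shown because it holds both copies close to the start, CACGTG in capitals, 250 bases before to 50 after the start on the plus strand of chr19:7522374-7522673 (GRCh38.p14).
MCOLN1: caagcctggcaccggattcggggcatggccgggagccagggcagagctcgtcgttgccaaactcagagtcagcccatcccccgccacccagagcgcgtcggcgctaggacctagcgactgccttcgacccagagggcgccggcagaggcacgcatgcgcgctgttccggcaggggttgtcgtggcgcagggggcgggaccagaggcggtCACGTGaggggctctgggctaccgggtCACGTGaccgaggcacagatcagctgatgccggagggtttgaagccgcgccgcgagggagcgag
Of the other motifs searched on both strands, CCAAT lay in 42.9% of members and 37.5% of other genes, CCGGAAG in 16.3% and 21.0%, TGACGTCA in 5.44% and 3.43%, TATAAA in 7.48% and 4.77%, GGGCGG in 74.8% and 72.0%, TGATGNAAT in 0% and 0.426%, and the NRF1 element in 8.16% and 12.9%. These are matches of letters and not measured sites.

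Around the endoplasmic reticulum and vesicle transport, each gene list held few members, and other members of these kinds lie outside the lists. Among those were ATF6B, AP2B1 and STX2, with medians of 106, 422 and 26.6 CPM in 24 siUPF1 libraries. Their medians with siNT were 65.3, 197 and 12.6 CPM. SRPRA was the only member among 24 genes of the SRP, its receptor and the translocon. Of the other 23, 2 rose and 4 fell in CLIP by edgeR, where 15.6% of all genes tested fell. With the replicate block 4 rose and 8 fell, and without replicate 1 the counts were 1 and 1. Without replicate 2 only 1 rose, and without replicate 3 only 1 fell. CREB3L2 and HYOU1, a chaperone of the endoplasmic reticulum, were the members among 22 unfolded protein response genes, of which 6 others rose in CLIP and 3 others in WT. The WT count was 6 with the replicate block and 1 without replicate 1 or 2. DNAJB9, a co-chaperone induced by that response, was among them, with a change of 0.70 in CLIP (SE 0.20, edgeR adjusted p = 0.00626) and 0.81 in WT (SE 0.21, edgeR adjusted p = 0.00552). HYOU1 had 275, 317 and 368 CPM as the lowest, median and highest of 24 siUPF1 libraries and 159, 176 and 224 CPM with siNT.

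The members among 42 genes of membrane and vesicle trafficking were RAB7A, RAB5B and ARF4. RAB7A, the GTPase of late endosomes, had 153, 144 and 135 CPM with siUPF1 in CLIP, against 56.2, 52.5 and 60.8 CPM with siNT. In WT it had 149, 134 and 122 CPM with siUPF1, against 51.2, 46.7 and 53.3 CPM with siNT. RAB5B, of early endosomes, and ARF4, of the Golgi, had effects of 0.69 to 0.84 and 0.66 to 0.96. Of the other genes in the list 9 rose and 10 fell in CLIP, and 6 rose and 4 fell in WT, where 6.98% of all genes fell. In CLIP 5 rose without replicate 2 and 6 fell without replicate 3, and in WT 2 rose without replicate 1 or 2 and 3 without replicate 3. RAB6A, a Golgi GTPase, fell by 1.40 in CLIP (SE 0.12, edgeR adjusted p = 3.18e-12) and by 1.24 in WT (SE 0.12, edgeR adjusted p = 6.51e-10).

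For established NMD targets, the number of genes that rose varied with the line. BAG1 was the only member among 46 NMD targets. Of the other 45, 27 rose in CLIP and 27 in LECY, 1 in WT, and among the other mutants 14 (F192E), 6 (FE-ER), 5 (IR-ER), 3 (I757R) and 2 (E797R), against the shares of all genes given for these lines above. The WT count was 3 with the replicate block and 2 without replicate 3. The effect of BAG1 was 1.76 in CLIP, 1.74 in LECY and 0.60 (I757R) to 1.21 (FE-ER) in the other lines. RPLP0 was the only member among 51 cytosolic ribosomal protein genes, of which 37 others fell in CLIP and 12 in WT. Without replicate 3 the CLIP count was 17, and the WT count was 22 with the replicate block and 7 without replicate 1. No member was in the lists of NMD factors, RNA interference machinery, innate RNA sensing and interferon, ATF4 stress response, p53 targets, cholesterol synthesis or cell division. The lists do not hold every gene of a pathway. SREBF1 and SCAP, which control sterol and lipid synthesis, were members, with medians of 49.6 and 58.5 CPM in 24 siUPF1 libraries. Their medians with siNT were 21.4 and 30.4 CPM.

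The letters of the members' 3′ UTRs were compared with those of other genes. All heptamers found in the 3′ UTRs of at least 20 members were ranked by the ratio of the share of members to the share of other genes with at least 5 CPM, a search that was chosen after the values had been seen. Of 5562 heptamers, GCAACCA ranked 1, in 44 of 173 members with a 3′ UTR (25.4%) and 665 of 10748 other genes (6.19%), a ratio of 4.11. CCCCCGA, which does not hold GCAACC, ranked 2, in 12.7% of members and 3.42% of other genes, a ratio of 3.71. Without it too, CGTCCCC ranked 4 with a ratio of 2.91, GCCCCCG ranked 5 with 2.80, and CCCCGCT ranked 6 with 2.66. All of these have a high GC content, and its part in their ranks was not tested. AGCAACC, which overlaps GCAACCA by 6 letters, ranked 3, in 22.5% of members and 6.81% of other genes. The shared hexamer GCAACC lay in 49.1% and 20.9%, and the octamer AGCAACCA in 11.6% and 2.21%. In coding sequences GCAACCA lay in 14.5% of members and 12.2% of other genes. AGCAACC lay there in 22.5% and 12.8%, and TGCAACC, which also holds the hexamer, in 17.3% and 9.11%. For AGCAACC and TGCAACC the higher share in members was thus not confined to 3′ UTRs, while for GCAACCA the shares in coding sequences lay close together. Coding sequences had a median of 1561.5 bases in members and 1443 in all genes with at least 5 CPM, and the part of their length was not tested. As the members and the heptamer were both chosen from these data, no test is given.

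The sites of the 6 members with the match and the largest smallest effects are shown, with GCAACCA in capitals, on the mRNA strand in GRCh38. They lie in the 3′ UTRs of CREB3L2, WDR18, RAB7A, VPS26A, VAT1 and SETD7, at chr7:137879699-137879723 (minus strand), chr19:994387-994411 (plus), chr3:128814056-128814080 (plus), chr10:69172816-69172840 (plus), chr17:43014826-43014850 (minus) and chr4:139506349-139506373 (minus), from GENCODE 29 transcripts.
CREB3L2: ttcctgctaGCAACCAcactgaaga
WDR18: tgcctcccaGCAACCAgggcccgcg
RAB7A: ttaatatatGCAACCAattaaaatg
VPS26A: tcaaattgtGCAACCAtgatgtata
VAT1: tgggccattGCAACCAaaatgggga
SETD7: gcatttattGCAACCAaaagttaac
Beyond the 7 letters these sites share little, and the base before them is A in CREB3L2 and WDR18 and T in the other 4. The complement of GCAACC is GGUUGC, and 1 of 2370 human mature miRNAs in RefSeq carries it at bases 2 to 7, hsa-miR-656-5p (chr14:101066731-101066751, plus strand), with these bases in capitals.
hsa-miR-656-5p: aGGUUGCcugugagguguuca
No mature miRNA carried GGUUGCU at bases 2 to 8. The siRNA sequences are not given in the sources used here, so the string was not compared with them, and small RNAs were not measured.

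The match was also set against length and base composition. Members with GCAACCA had longer 3′ UTRs, with a median of 2010 bases against 1065 in members without it, and their transcripts had a lower GC content, 47.5% against 56.8%. Among genes within the middle range of the members' 3′ UTR lengths, 25.0% of members and 4.04% of other genes held it, and within the middle range of GC content, 27.1% and 5.59%. The median range of effects over the lines was 0.33 in members with the match and 0.39 in those without. Their median effect was 0.95 against 1.02 in CLIP and 0.96 against 0.92 in WT.

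Genes outside the set were left out by the same effects, and GCAACCA was ranked against them, so their values are not independent of either choice. The genes compared below were not restricted to a like 3′ UTR length or GC content. The 665 other genes with GCAACCA in the 3′ UTR had a median effect of 0.06 in CLIP and 0.09 in WT, and in the mutants it was 0.12 (E797R), 0.11 (I757R), 0.09 (LECY), 0.09 (F192E), 0.09 (IR-ER) and 0.07 (FE-ER). The 10083 other genes without it had medians between −0.01 and 0.01 in the 8 lines. In WT 5.86% of genes with the match and 2.54% without passed the 1.5-fold threshold, and in CLIP 10.1% and 8.55%. Genes are not independent replicates, so these differences are a description of the same libraries.

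**Figure D5:**
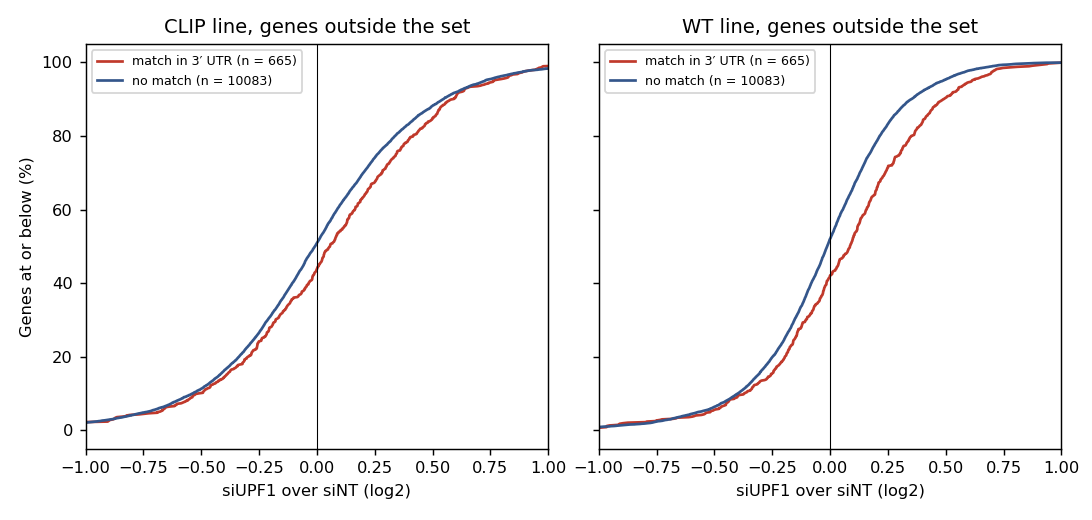
Cumulative share of genes outside the set of shared risers (y axis, %) by effect of siUPF1 over siNT (x axis, log2, shown between −1 and 1) in the CLIP and WT lines, red for 665 genes with GCAACCA in the 3′ UTR and blue for 10083 without. The red curve lies to the right of the blue one around the middle, with medians of 0.06 against −0.01 in CLIP and 0.09 against −0.01 in WT.

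Other features set the members beside all genes with at least 5 CPM. Their transcripts had a median GC content of 54.8% against 48.2%, and a median of 12 exons against 9. The median 3′ UTR length was 1200 bases against 1209. GC content moved with the effect in other genes too: outside the set, genes at or above the members' median GC had a median effect of 0.15 in CLIP and 0.06 in WT, and genes below it −0.06 and −0.03, while in E797R the medians were −0.01 and 0.01. The part of GC content in the members' effects was not tested.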

How the data were processed

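In 48 libraries from 8 stable 293 lines, RNA was depleted of ribosomal RNA and sequenced in pairs, per the labels' protocols. The authors deposited 1 table of RSEM expected counts per gene (58870 genes, unnormalised), and 9.16% of its values were not whole. The submitters' processing notes name cutadapt, STAR, RSEM and DESeq2 and the build hg38, without roles or versions. The annotation and strand setting are not given in the sources used here, so reads of overlapping or antisense genes and of near-identical copies cannot be told apart.

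The members, gene lists and tests were chosen with earlier results of these data known. CPM used library totals. For tests, expected counts were rounded and genes kept by filterByExpr (minimum count 10), which left 16697 genes. All libraries entered 1 edgeR 4.0.16 fit (R 4.3.3) with 16 groups, TMM factors 0.951 to 1.03, and robust quasi-likelihood F tests, adjusted by Benjamini-Hochberg over all genes tested. The tests are two-sided and genes were called at an adjusted p under 0.05. The SE is the log2 difference divided by the square root of F. An exact permutation test of 3 against 3 libraries reaches a p of 0.1 at best. The fit was tested on simulated data.

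Named members were the 8 with the largest smallest effect, the 4 with the highest CPM, the 4 with the widest and the 4 with the narrowest range, those in a gene list, the 4 largest called differences in each direction for WT against CLIP with siUPF1 and the 2 largest for each mutant, and those at the threshold. Other names were picked after their values were seen. A member that the rule names is not reported by name here. Gene positions and 3′ UTRs came from GENCODE 29 (GRCh38), promoters and miRNAs from RefSeq (GRCh38.p14). DESeq2 1.42.0, other scalings, no filter, 2 groups only, a replicate block and leaving out replicates were the alternatives. Same-numbered libraries deviated together in every pair (r over 0.1) within each line, between WT and CLIP, and between WT and each of F192E, E797R and LECY, and with siUPF1 also I757R and IR-ER, so the numbers pair those libraries.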

Additional observations from a re-analysis of the deposited data

How the results depend on the processing

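The number of shared risers was 24 with a threshold of 1 on the log2 scale and 61 when all 24 same-numbered pairs had to pass the 1.5-fold threshold (replicate block), and 148 to 211 when 1 replicate was left out. Other scalings, pseudocounts and CPM minimums gave 155 to 205. With the replicate block as a term, the members called with siUPF1 were 49 for WT against CLIP, 15 for F192E, 2 for I757R, 2 for IR-ER and 42 for LECY against WT, and 4356 genes were called for siUPF1 against siNT in WT, against 2572 without it. Between FE-ER and WT with siUPF1, r was 0.0866, 0.277 and 0.257 in replicates 1, 2 and 3, so 1 pair lay under 0.1. The block called 7 members there. The block moved no other count of members called by over 1.5 times. With no filter on low counts, 8 members were called with siUPF1 for F192E, 4 for FE-ER, 6 for I757R, 3 for IR-ER and 1 for E797R, and with siNT 1 for F192E, 2 for I757R, 1 for IR-ER and 1 for E797R. DESeq2 called 4 for F192E and 1 for FE-ER with siUPF1. Fits of only the 2 groups compared called 0 members for F192E, 13 for LECY, and 1164 genes in WT for siUPF1 against siNT. Leaving out 1 replicate gave 11 to 24 members for WT against CLIP, 0 to 1 for F192E and 10 to 17 for LECY, and 3520 to 4474 genes in CLIP and 1056 to 1697 in WT for siUPF1 against siNT. Over the alternatives to the 11 named line differences, 102 values stayed past the threshold and 34 did not, and the direction was the same in each. With a pseudocount of 2 CPM the smallest effect was 1.39 for PAQR6 and 1.06 for WNK4. The share of members with GCAACCA was 23.5% to 28.9% without 1 replicate. The causes of these shifts were not tested. Counts of members called with no filter, 2 groups only or 1 replicate less have no like background and are not read as a result. Members under 10 CPM rest on few reads per library, and 3 replicates limit what the line comparisons can show.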
